A study of Mus musculus with 16 samples.

Results

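Chromatin accessibility in hematopoietic stem and progenitor cells (HSPCs) that lacked both p300 and Tet2 was compared with that in wild-type HSPCs. The comparison used the 4 libraries labelled P300KO_TET2KO and the 4 labelled WT, 8 of the 16 libraries of the series. It spans the full distance of the design, since the other 8 libraries come from the single knockouts. P300KO_TET2KO cells came from Mx1-Cre;Ep300 fl/fl;Tet2-/- mice, in which an interferon-inducible Mx1 promoter drives the Cre recombinase that deletes Ep300, while Tet2 is absent from the germline. WT cells came from Ep300 fl/fl mice without Cre. P300KO cells were Mx1-Cre;Ep300 fl/fl and TET2KO cells were Ep300 fl/fl;Tet2-/-, and every genotype received poly(I:C), which sets off an interferon response and so turns on the Cre. The mice were on a C57BL/6 background and of both sexes. Each library held cells of 2 age-matched mice of 1 genotype, so mice cannot be separated within a library, and 50000 viable thawed cells were processed. Poly(I:C) was started at 6 to 8 weeks of age and given in 3 injections on alternate days, and experiments of the study followed after 2 weeks or at times stated for each. Which of these applies to the ATAC-seq libraries, the age at their sort and how completely Ep300 was deleted in them are not given in the sources used here.

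p300, encoded by Ep300, is an acetyltransferase that is recruited to enhancers and promoters by transcription factors and acetylates histone H3 at lysine 27. TET2 oxidizes 5-methylcytosine in DNA, a step toward demethylation, and its gene is often mutated in myeloid malignancies. ATAC-seq cuts DNA with a transposase where it is not wrapped in nucleosomes, so a peak marks an open promoter or enhancer-like site. In HSPCs such sites are commonly occupied by Gata2, Runx1, PU.1 (Spi1) and other Ets factors, and the set of open sites shifts as cells are primed for the erythroid, myeloid or lymphoid fate.

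The strength of a peak was read as its rank within its own library. The 50000 strongest intervals of each list were kept by −log10 p and given a percentile, where 100 is the strongest interval and 0 means that the site was not among the 50000. The 8 lists merged into 74725 regions, of which 48957 were in at least 4 lists and were tested, and 29872 were in all 8. A region was called rising when both P300KO_TET2KO libraries lay above both WT libraries in replicates 1-2 and again in replicates 3-4, and falling in the opposite case. These calls carry no p. By this rule 5271 regions (10.8% of those tested) were rising and 2765 (5.65%) were falling. A region could enter the test through the 4 lists of 1 genotype alone, and 365 rising and 179 falling regions were absent from all 4 lists of the other genotype. Only 4 of those 365 and 3 of those 179 had no interval at all in the other genotype's full lists, and the rest had a weaker interval in at least 1 of them.

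The lists of the 2 genotypes were not equally strong. The −log10 p at rank 50000 was 4.11, 6.14, 48.27 and 45.07 in WT replicates 1 to 4 and 13.62, 21.68, 64.07 and 56.09 in P300KO_TET2KO replicates 1 to 4. It was higher in P300KO_TET2KO in both replicate pairs, and WT replicate 1 was the weakest list. The 50000 strongest intervals of WT replicate 1 had a median width of 324 bp and held 34914 of the tested regions, against 42081 to 46388 in the other 7 lists. Within replicates 1-2 the rank correlation between regions (Spearman, over 48957 regions, a description) was 0.947 for the P300KO_TET2KO pair and 0.817 for the WT pair, beside 0.813 to 0.88 for libraries of different genotype. Within replicates 3-4 it was 0.95 to 0.963 for libraries of the same genotype and 0.905 to 0.925 across genotypes. The WT pair of replicates 1-2 was thus the one that lay inside the range across genotypes. The part of list strength in the counts below was not tested.

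Short stretches of the sites with the widest separation show what kind of DNA was involved. They are the 3 rising and 3 falling regions outside promoters with the largest difference, each shown as the bases within 100 bp of the summit of its best ranked interval, on the plus strand of GRCm38 (mm10) from RefSeq, named by the nearest protein-coding transcription start. Capitals mark matches to the 12 short strings described below. The sites near Cdrt4, Ppm1h and Tmem17 are rising and those near Hs6st1, Tgfbr2 and Cnn3 falling.

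Cdrt4, chr11:62929942-62930142: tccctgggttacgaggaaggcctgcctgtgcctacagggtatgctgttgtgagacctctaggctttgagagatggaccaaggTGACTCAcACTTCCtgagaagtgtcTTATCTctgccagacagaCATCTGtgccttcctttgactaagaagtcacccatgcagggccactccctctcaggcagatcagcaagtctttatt

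Ppm1h, chr10:122886180-122886380: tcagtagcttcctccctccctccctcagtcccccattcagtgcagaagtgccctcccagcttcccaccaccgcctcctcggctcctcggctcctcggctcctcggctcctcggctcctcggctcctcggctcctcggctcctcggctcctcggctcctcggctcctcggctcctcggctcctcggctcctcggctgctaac

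Tmem17, chr11:22666098-22666298: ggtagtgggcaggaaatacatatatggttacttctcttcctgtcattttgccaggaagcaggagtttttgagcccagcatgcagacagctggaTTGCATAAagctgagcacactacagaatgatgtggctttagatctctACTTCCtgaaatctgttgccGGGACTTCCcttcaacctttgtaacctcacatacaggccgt

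Hs6st1, chr1:35869797-35869997: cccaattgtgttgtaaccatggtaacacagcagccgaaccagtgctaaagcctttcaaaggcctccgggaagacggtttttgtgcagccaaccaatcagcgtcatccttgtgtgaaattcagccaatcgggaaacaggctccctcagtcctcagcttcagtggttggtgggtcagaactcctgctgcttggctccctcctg

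Tgfbr2, chr9:116270419-116270619: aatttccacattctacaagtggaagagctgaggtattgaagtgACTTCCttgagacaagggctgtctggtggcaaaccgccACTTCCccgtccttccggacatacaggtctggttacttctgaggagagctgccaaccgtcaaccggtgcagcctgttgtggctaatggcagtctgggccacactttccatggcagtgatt

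Cnn3, chr3:121369731-121369931: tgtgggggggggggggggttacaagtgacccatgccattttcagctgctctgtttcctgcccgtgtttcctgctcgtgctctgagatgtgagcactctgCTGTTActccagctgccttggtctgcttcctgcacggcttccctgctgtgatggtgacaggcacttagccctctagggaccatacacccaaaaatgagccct

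The Cdrt4 window holds Gata, Ets, AP-1 and Tal1 strings close to its summit, and the Tmem17 window holds Ets, Cebp and NF-kB strings. The Ppm1h window is built from a short unit repeated in tandem and has a GC content of 69.7%, without any of the strings. Among the falling sites, the Hs6st1 window holds none of the strings, the Tgfbr2 window holds a pair of Ets strings and the Cnn3 window a Myb string.

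The intergenic site 21.2 kb upstream of Cdrt4 (chr11:62929672-62930312) was not among the 50000 strongest of any WT library and stood at percentiles 64.4, 67.3, 74.1 and 58.4 in P300KO_TET2KO replicates 1 to 4. The groups did not overlap, and the difference was 66.0 points. Since a region needed a place in at least 4 of the 8 lists to be tested, a site at 0 in all libraries of 1 genotype entered through the other alone, so no p is given for such a site. In a bulk library, fewer cells with an open site and a less open site per cell cannot be told apart. The site was a weak peak in the full lists of 2 WT libraries, with a −log10 p of at most 23.7 there against at least 72.8 in P300KO_TET2KO. In the single knockouts it was also low, at 0 to 23.0 in P300KO and 0 to 5.2 in TET2KO.

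The promoter of Baiap3, a gene of the Munc13 family of vesicle-release proteins, showed the same kind of separation. Its region (chr17:25247696-25248679) was at 0 in all 4 WT libraries and at 65.7, 67.8, 64.5 and 67.5 in P300KO_TET2KO, a difference of 66.4 points. The single knockouts were split within a genotype here. P300KO replicates 1 to 4 stood at 76.2, 32.9, 0 and 0, and TET2KO replicates at 66.4, 74.4, 68.8 and 0. Libraries of 1 genotype therefore ranged from the WT level to above the P300KO_TET2KO level.

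The repeat-rich site in Ppm1h, which encodes a protein phosphatase, stood at 0, 0, 1.8 and 0 in WT and at 67.3, 65.8, 62.2 and 53.0 in P300KO_TET2KO (chr10:122885952-122886841, an exon, 9.1 kb from a start of the gene). TET2KO libraries stood at 45.4 to 67.9 and P300KO libraries at 0 to 19.4, so the Tet2-deficient libraries were the high ones. The site near Tmem17 (chr11:22665853-22666810, intergenic, 154.1 kb away) and one in Atf2, a basic leucine zipper transcription factor (chr2:73818484-73819385, exon), were likewise high in all TET2KO libraries, at 66.2 to 79.3 and 69.0 to 80.7. At both of them WT replicate 4 departed from the other WT libraries, at 56.4 near Tmem17 and 63.6 in Atf2 against 0 to 5.4.

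Other rising sites outside promoters lay near or in Alad, an enzyme of heme synthesis, Rbfox1, a splicing regulator, Rfxap, a subunit of the factor that binds MHC class II promoters, and Tut7, an RNA uridylyltransferase. The Alad site (intron, 4.3 kb from the start) stood at 0, 9.3, 0 and 0 in WT and at 57.3, 50.9, 59.4 and 64.1 in P300KO_TET2KO, and its window holds a Gata string. The Tut7 site differed from the rest in that it was a peak of middling rank in 3 WT libraries (31.6, 59.1 and 35.0) and one of the strongest in P300KO_TET2KO (82.4, 80.7, 86.4 and 85.7). The other rising promoters were those of Slc35f6, Uggt2 and Psen2, the last a catalytic subunit of the gamma-secretase that cleaves Notch receptors. The Psen2 region (2.1 kb from the start) stood at 0 to 24.7 in WT and at 54.0 to 61.5 in P300KO_TET2KO.

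The falling site upstream of Hs6st1, a heparan sulfate sulfotransferase 198.5 kb away (chr1:35869361-35870158), stood at 77.5, 77.2, 75.5 and 61.0 in WT and at 0 in all 4 P300KO_TET2KO libraries. The difference was -72.8 points. P300KO libraries kept the WT level, at 71.1 to 79.5, while TET2KO libraries spread from 0 to 59.4. A peak remained in all 4 full P300KO_TET2KO lists, with a −log10 p of at most 34.5. In WT the −log10 p was 17.5, 46.0, 296.7 and 166.3, so on that scale WT replicate 1 was below the highest P300KO_TET2KO library.

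Among called regions the largest difference in either direction was on chromosome 14 (chr14:118982090-118983189), 1.0 kb from the start of the non-coding gene Gm49768 and 24 kb from Uggt2. It stood at 67.8, 79.0, 77.6 and 71.7 in WT and at 0 in every P300KO_TET2KO library, a difference of -74.0 points. P300KO libraries were at 66.2 to 76.6. TET2KO libraries were at 19.5, 0, 0 and 62.0, so replicate 4 stood near WT and the others were low. The start of 2610035D17Rik, 390.4 kb from Sox9, showed the same order, at 73.4 to 79.7 in WT, 68.5 to 77.2 in P300KO, 0 to 14.5 in P300KO_TET2KO and 0, 2.7, 0 and 67.0 in TET2KO. The rising Uggt2 promoter (chr14:119052006-119052864) is the nearest named region to the Gm49768 site, and the 2 sites had opposite directions.

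The site 95.2 kb upstream of Tgfbr2, a receptor of transforming growth factor beta, stood at 75.2, 61.6, 75.4 and 73.6 in WT and at 0, 0, 0 and 5.2 in P300KO_TET2KO. Single knockouts were below WT and spread widely, at 15.4 to 54.6 in P300KO and, down to the P300KO_TET2KO level, 3.6 to 53.4 in TET2KO. The site near Cnn3, a calponin, was strong in WT (74.9 to 83.5), weak in P300KO_TET2KO (0 to 18.7) and between these levels in both single knockouts (53.7 to 73.3 in P300KO and 50.6 to 69.9 in TET2KO, each library below the lowest of WT). The promoter of Chga, which encodes the granule protein chromogranin A, was the reverse case, since both single knockouts were low, at 0 to 16.2 and 0 to 22.5, beside 37.6 to 68.9 in WT and 0 in P300KO_TET2KO. Falling sites near Ddx18, Bnc2, A430005L14Rik, Btbd35f28 and Neto1 and at the Rsad1 promoter had WT percentiles of 40.9 to 86.2. P300KO_TET2KO was at 0 in every library at 4 of these 6 sites, and reached 20.8 near Btbd35f28 and 48.4 near Bnc2.

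**Figure D1:**
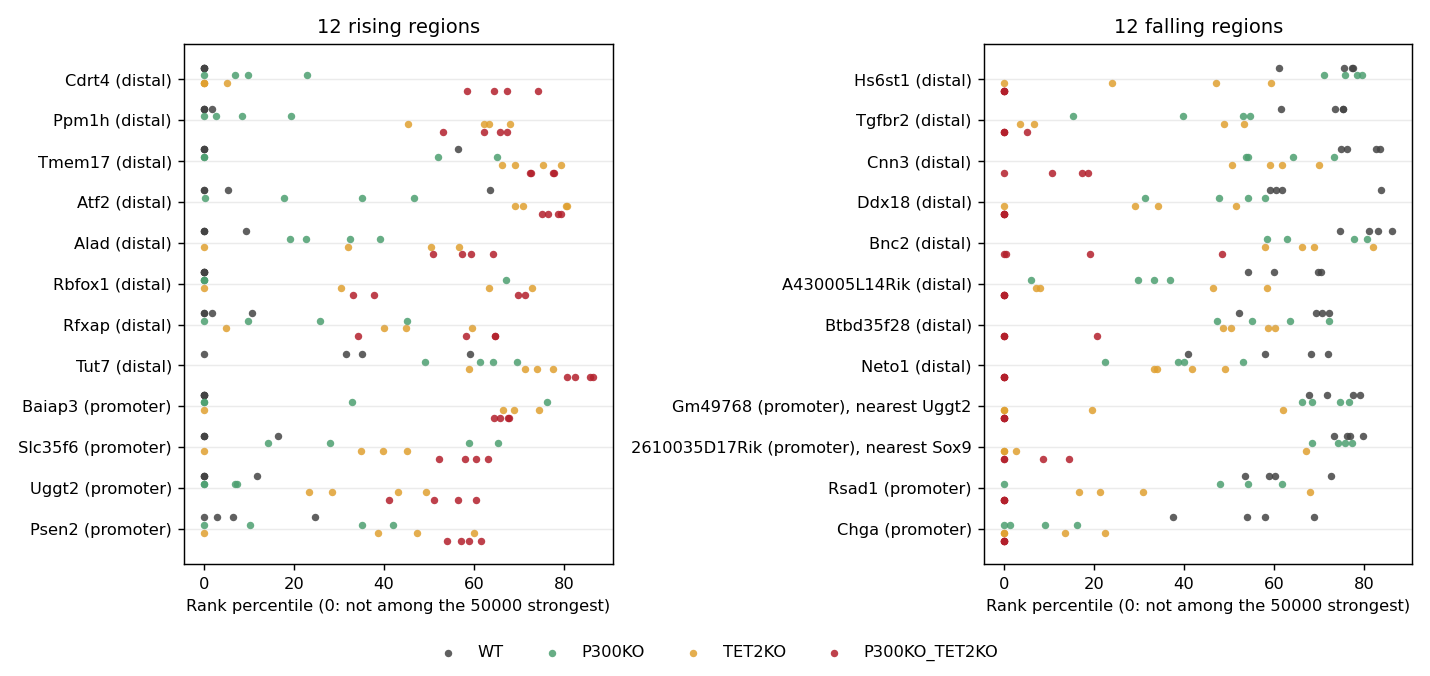
Rank percentile, from 0 to 100 with 0 for a site not among the 50000 strongest, of the 12 rising and 12 falling regions with the largest difference, 8 outside promoters and 4 in promoters each way, with 1 point per library and 4 libraries per genotype (points at 0 overlap). WT and P300KO_TET2KO points do not overlap at any of the 24 regions, which were chosen for their large difference, whereas TET2KO points spread from 0 to above 50 at 8 of them and P300KO points at 4.

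These 24 regions were chosen for their difference, so no test of it is given. The readings of the single knockouts did not enter the choice. At 8 of the 24 regions TET2KO held at least 1 library at 0 and at least 1 above 50, and at 4 regions P300KO did. The spread within a genotype exceeded 50 points at 11 of the 24 regions in TET2KO and 5 in P300KO, beside 2.04% and 3.18% of all tested regions. TET2KO replicate 4 departed most often. It was at 0 at 5 of the 12 rising regions, where the other TET2KO libraries were at 0 at 1 each, and above 50 at 7 of the 12 falling regions, where the others were above 50 at 3, 5 and 3. The genotype of that library was taken from its label, and its identity was not tested here.

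Over all regions, limma with the replicate pair as a covariate called 282 regions higher (0.576% of those tested) and 292 lower (0.596%) in P300KO_TET2KO at an adjusted p under 0.05, and 8542 regions had an unadjusted p under 0.05. All 282 were rising and all 292 were falling. Of them 53 and 52 were at 0 in all 4 libraries of the other genotype and so entered the test through 1 genotype alone. When all regions in at least 1 list were tested, 1 was higher and 6 were lower. With the replicate number as a block they were 57 and 115. Leaving out WT replicate 1 raised them to 1132 and 1086 and leaving out WT replicate 2 changed them to 548 and 435. Leaving out any of the other 6 libraries lowered them to 4 to 11 higher and 12 to 42 lower. In replicates 1-2 alone limma called 0 regions, with 5516 at an unadjusted p under 0.05, and in replicates 3-4 alone 32 and 81.

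The direction of the calls also moved with the handling of the lists. Rising regions made up 65.6% of the called regions, 56.8% without WT replicate 1, 53.6% in replicates 3-4 alone and 49.5% when intervals were ranked by fold enrichment. The median difference of all tested regions was 1.29 points, and it was 0.52 points for the regions in all 8 lists. The surplus of rising over falling regions is therefore given as a count in these lists, without a direction for the genome as a whole.

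**Figure D2:**
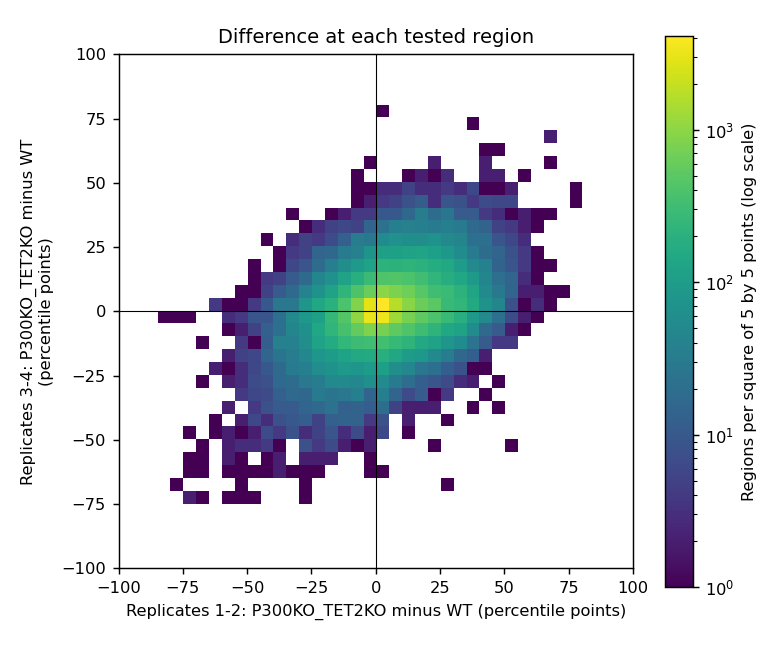
Difference of mean percentile, P300KO_TET2KO minus WT, in replicates 1-2 (horizontal, percentile points) and in replicates 3-4 (vertical, percentile points), with the number of tested regions in each square of 5 by 5 points on a log colour scale. Most regions lie near 0 in both pairs, 36.7% of the 48957 were higher in both, 22.5% were lower in both and 39.3% had opposite signs.

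The called regions were described by their place in the genome. Of the 5271 rising regions 43.1% lay within 3 kb of a transcription start, 31.9% in introns, 22.4% between genes and 2.7% in exons. The shares of all tested regions were 46.2%, 26.5%, 24.7% and 2.6%. Rising regions made up 12.96% of tested intronic regions, 10.03% of promoters and 9.74% of intergenic regions. Falling regions made up 5.77%, 5.24% and 6.23% of the same classes. The regions called by limma lay outside promoters more often, with 33.0% of the higher and 25.7% of the lower ones in promoters. The share of a library's 50000 strongest intervals outside promoters was 53.2% ± 1.23 (SD, n = 4) in P300KO_TET2KO and 53.2% ± 1.52 (SD, n = 4) in WT (exact permutation test, two-sided p = 0.971 over 70 regroupings, smallest possible 0.0286). The difference was 0.2 points in replicates 1-2 and -0.1 points in replicates 3-4.

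At the called regions the single knockouts lay between WT and P300KO_TET2KO. The median percentile of the 282 regions higher by limma was 0 to 11.6 in WT libraries, 31.7 to 32.9 in P300KO, 25.9 to 37.0 in TET2KO and 48.0 to 51.1 in P300KO_TET2KO. At the 292 lower regions it was 63.0 to 69.5 in WT, 49.4 to 52.1 in P300KO, 40.4 to 58.4 in TET2KO and 20.8 to 23.4 in P300KO_TET2KO. The WT and P300KO_TET2KO values were set by the choice of regions. Libraries that took no part in the choice tend to fall between groups chosen to lie apart, so the intermediate position was nearly fixed in advance. These comparisons also share libraries with the one that chose the regions. The position is given as a description without a test.

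**Figure D3:**
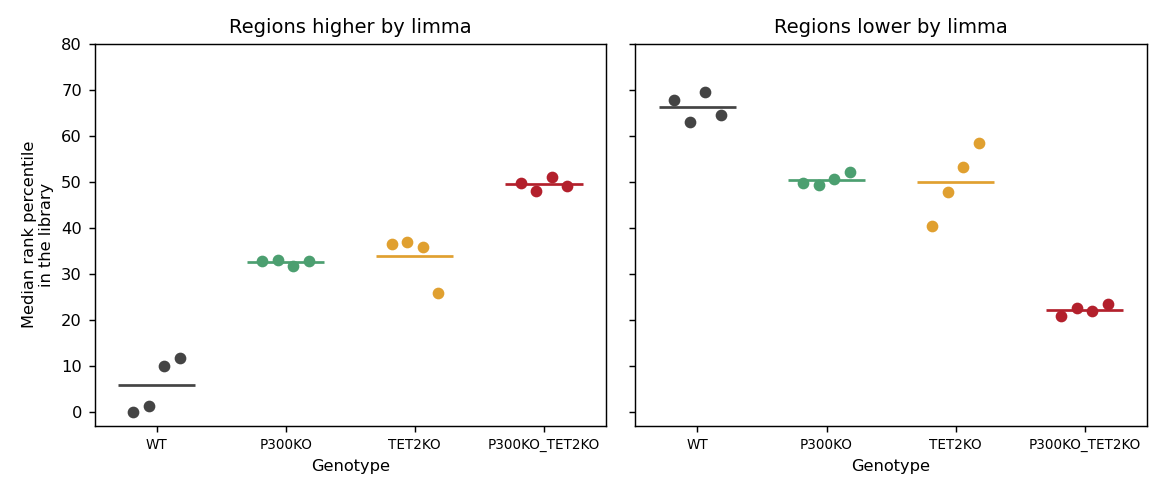
Median rank percentile (0 to 100) in each of the 16 libraries of the regions called higher (left) and lower (right) by limma in P300KO_TET2KO against WT, with 1 point per library and a line at the mean of each genotype. P300KO libraries sit at 31.7 to 32.9 on the left and 49.4 to 52.1 on the right. They lie between the 2 genotypes that chose the regions, a position that this choice nearly fixes. TET2KO replicate 4 sits nearest to WT of the TET2KO libraries on both sides.

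The DNA at called regions was searched for 12 short strings, each known as the core of a site of hematopoietic or general factors, within 100 bp of the summit and on both strands. The letters were AGATAA for Gata, GAGGAAGT for PU.1, GGAAGT for Ets, TGTGGTT for Runx, TTGCNNAA for Cebp, AANNGAAA for Irf, TGANTCA for AP-1, GGGANTTCC for NF-kB, TAACNG for Myb, CAGATG for Tal1, GGGCGG for Sp/Klf, and a consensus for CTCF. Every PU.1 match is also an Ets match. A match describes the sequence and not binding.

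The Gata string differed most between rising and falling regions outside promoters. It was in 17% of the 3000 rising, 6.2% of the 1579 falling and 10.2% of all 26320 tested regions outside promoters. In the regions called by limma it was in 54 of 189 higher (28.6%) and 9 of 217 lower (4.1%). Gata factors direct stem cell maintenance and erythroid and megakaryocyte differentiation. The order was the same without WT replicate 1 (15.9% rising and 6.2% falling), within replicates 3-4 alone (15.9% higher and 6.2% lower), within replicates 1-2 alone, where the gap was smaller (11.3% and 9.2%), and among regions in all 8 lists (17.3% and 6.1%). Looked at from the other side, 19% of the 2679 tested regions with the Gata string were rising and 3.7% falling, beside 11.4% and 6.0% of all tested regions outside promoters. Their median percentile was 39.6 to 40 in the P300KO_TET2KO libraries, 26.3 in WT replicate 1 and 33.5 to 37.7 in the other WT libraries. P300KO libraries were level with P300KO_TET2KO, at 37.5 to 40.5, and TET2KO libraries stood at 32.8 to 38.8.

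Ets strings followed, in 43.0% of rising, 34.9% of falling and 34.1% of all tested regions outside promoters, and the PU.1 string in 15%, 9.9% and 10.2%. PU.1 is a master regulator of myeloid and early B cell genes. The NF-kB string was rare, in 2.3% of rising, 0.8% of falling and 1.3% of all. The AP-1 string was in 11.3%, 8.7% and 9.2%, and the Cebp string in 11.1%, 8.4% and 9.9%.

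The Tal1 and Myb strings went the other way. Tal1, a basic helix-loop-helix factor that works with Gata factors in stem and erythroid cells, had its string in 17.1% of rising, 23.1% of falling and 18.2% of all tested regions outside promoters, and in 32.7% of the 217 lower by limma. The Myb string was in 18.1%, 21% and 19.7%, and in 25.8% of the lower and 14.8% of the higher regions by limma. The shares in rising, falling and all tested regions were 20.4%, 22.7% and 21.1% for Irf, 8.5%, 10.3% and 9.3% for Sp/Klf, and 15.4%, 15.7% and 13.2% for Runx. The CTCF consensus was scarcer in both called sets, at 7.0% of rising and 4.2% of falling against 10.9% of all, and in 1 of 189 higher and 3 of 217 lower regions by limma.

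**Figure D4:**
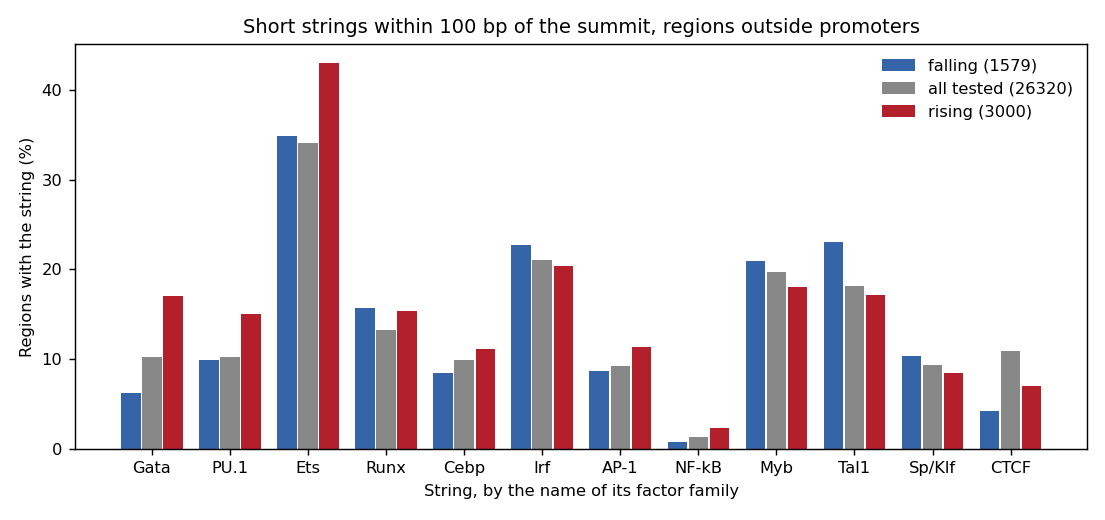
Share (%) of tested regions outside promoters whose bases within 100 bp of the summit hold each of 12 short strings, for falling, all tested and rising regions, with the number of regions in each set in the legend. The Gata bars run from 6.2% in falling through 10.2% in all to 17% in rising regions, and the Tal1 bars run the other way, from 23.1% to 17.1%.

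Base content of the called regions was also compared. Rising regions outside promoters held on average 3.18 CG dinucleotides per window and falling ones 4.1, beside 3.61 in all tested, and the mean GC content was 50.4%, 52.1% and 50.9%. Windows with most of their bases masked as repeats made up 3.3% of rising, 2.0% of falling and 3.4% of all tested regions outside promoters.

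Per library, the strings could be tested over samples. The Gata string was in 10.9%, 10.8%, 10.4% and 10.4% of distal windows of P300KO_TET2KO replicates 1 to 4 and in 9.2%, 10.7%, 9.1% and 9.0% of those of WT. The groups overlapped through WT replicate 2. The difference was 1.12 points, with an exact permutation p of 0.0857 and an adjusted p of 0.343 over the 12 strings. The Ets string was in 34.7% ± 1.32 of windows in P300KO_TET2KO and 32.2% ± 3.76 in WT (SD, n = 4 each), with WT replicate 1 at 26.6%. Of the 12 strings 0 passed after adjustment at 0.05, and 0 had an unadjusted exact permutation p under 0.05. At least 7 strings would have needed the smallest p of 0.0286 for any to pass.

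Genes of hematopoiesis were examined as lists, with each tested region within 100 kb of the nearest protein-coding start given to that gene. The limma counts per list stand beside 0.576% higher and 0.596% lower of all tested regions. Among the 20 stem cell factors, 23 of 169 regions were rising (13.6%) and 7 falling (4.1%), beside 10.8% and 5.65% of all tested regions, with a median difference of 1.35 points beside 1.29 over all tested regions. Rising regions lay near 12 of these genes. They included 4 near Runx1, 4 near Etv6, 3 near Meis1, 3 near Fli1 and 2 near Erg, all transcription factors that maintain stem cells. A region 41.4 kb upstream of a Runx1 start stood at 15.1, 12.6, 18.1 and 30.4 in WT and at 42.3, 50.4, 44.8 and 33.1 in P300KO_TET2KO, without passing limma (adjusted p = 0.16). Limma called 0 regions of this list higher and 1 lower, 26.5 kb from Zfp36l2, which encodes an RNA-binding protein. It stood at 88.5, 91.6, 91.4 and 83.5 in WT and at 80.2, 74.2, 74.6 and 75.3 in P300KO_TET2KO (limma adjusted p = 0.0184). In both genotypes it was thus a strong site.

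Near surface and cytokine receptor genes 3 of 64 regions were rising (4.7%, beside 10.8% of all tested) and 8 falling (12.5%, beside 5.65%), and the median difference was 0.77 points. The leading one lay 8.7 kb upstream of Cd48, which marks progenitors committed beyond the stem cell. It stood at 73.0, 70.3, 63.9 and 38.1 in WT and at 25.7, 47.7, 1.2 and 14.6 in P300KO_TET2KO, where P300KO_TET2KO replicate 2 was above WT replicate 4 (limma adjusted p = 0.0479). The call was lost with any 1 of 6 libraries left out (limma adjusted p = 0.102 to 0.184), with lists of 30000 or 70000 or full lists (0.0715 to 0.11), when ranked by fold enrichment (0.0858) and with the replicate block (0.0903). Cd44, an adhesion receptor, had 3 falling regions and 1 rising.

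Lymphoid priming genes had 10 of 80 regions rising (12.5%, beside 10.8% of all tested) and 8 falling (10%, beside 5.65%), with a median difference of 0.8 points. Limma called 3 of the 80 lower, beside 0.596% of all tested regions. Of these the Ebf1 region entered the test through WT alone. Ebf1, the pioneer factor of the B lineage, held an intronic region (chr11:44881122-44881715) that stood at 70.5, 42.8, 58.8 and 53.2 in WT and at 0 in all 4 P300KO_TET2KO libraries (difference -56.3 points). Its call was lost with any 1 of 6 libraries left out, in full lists and in lists of 30000. P300KO libraries were low there too, at 0 to 13.5, and TET2KO libraries stood at 14.4 to 40.4. Dntt, the terminal transferase of early lymphoid progenitors, held an intronic region 9.9 kb from its start (chr19:41039060-41039601) at 69.4, 75.4, 77.5 and 77.2 in WT and at 30.0, 41.7, 29.5 and 58.3 in P300KO_TET2KO (difference -35.0 points, 95% CI -48.7 to -21.3, limma adjusted p = 0.0274). The groups did not overlap at either site. The other 3 regions at Dntt were not called, and its promoter region stood at 78.4 to 85.7 in WT and 75.6 to 82.3 in P300KO_TET2KO. A falling region 17.2 kb from an Ikzf1 start stood at 39.2 to 56.6 in WT and 4.2 to 26.7 in P300KO_TET2KO (limma adjusted p = 0.114). Over its 10 regions Ikzf1, a factor of early lymphoid cells, had 3 rising and 2 falling. Bcl11a, a factor needed for lymphoid development, had 3 rising and 0 falling of 9 regions.

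Notch pathway genes had 11 of 114 regions rising (9.6%, beside 10.8%) and 10 falling (8.8%, beside 5.65%). Notch1, the receptor, had 8 tested regions across the gene and 10 kb on either side, of which 2 were rising and 1 falling. The falling one (chr2:26512992-26514127, intron, 3.1 kb from a start) was among the strongest of the genome in WT, at 92.8, 86.9, 94.6 and 93.4, and stood at 80.5, 80.3, 86.7 and 86.8 in P300KO_TET2KO. Although small, at -8.3 points, the difference passed limma (adjusted p = 0.0202), but WT replicate 2 and P300KO_TET2KO replicates 3 and 4 stood within 0.2 points of each other. The promoter region was level, at 85.8 to 93.4 in WT and 85.1 to 90.4 in P300KO_TET2KO. Hes1, a target gene of Notch, had 4 falling and 1 rising of 14 regions. The region 79.3 kb from Hes1 stood at 62.2, 16.5, 45.8 and 46.3 in WT and at 0 in every P300KO_TET2KO library, and it too entered the test through WT alone. Maml3, a coactivator of Notch, held an intronic region at 31.3 to 58.8 in WT and 0 to 16.7 in P300KO_TET2KO (limma adjusted p = 0.0297), and a second intron region that was rising.

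Proliferation and cell cycle genes had 12 of 108 regions rising (11.1%, beside 10.8%) and 11 falling (10.2%, beside 5.65%). An intronic region of Ccnd3, a D-type cyclin, stood at 62.9, 78.3, 77.8 and 74.0 in WT and at 32.6, 30.5, 38.9 and 42.8 in P300KO_TET2KO (limma adjusted p = 0.0138). A region 19.6 kb from Mki67, a marker of cycling cells, also passed (82.2 to 91.3 in P300KO_TET2KO and 93.9 to 95.9 in WT, limma adjusted p = 0.0469). Of the 7 regions given to Mki67, 1 was falling and 2 were rising. Of the 6 regions given to Myc, 4 were rising, and none of them passed limma. From 10 kb downstream to 110 kb upstream of Myb, a factor needed for the proliferation of progenitors, 2 of 13 regions were rising and 1 falling. A region 28.2 kb downstream of a Myb start was at 0 in all WT libraries and at 7.8, 18.3, 29.2 and 26.2 in P300KO_TET2KO, through which alone it entered the test. The falling one, 43.7 kb from Hbs1l, stood at 63.4 to 72.8 in WT and 44.7 to 54.7 in P300KO_TET2KO (limma adjusted p = 0.0652). The largest difference of the 13 was 39.9 points, at a region 67.3 kb from Hbs1l that was not called. It stood at 0, 54.5, 14.1 and 6.2 in WT and at 58.8, 54.3, 59.4 and 61.9 in P300KO_TET2KO (limma adjusted p = 0.0961). There WT replicate 2 was just above P300KO_TET2KO replicate 2.

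Granulocyte and monocyte regulators had 7 of 82 regions rising (8.5%, beside 10.8%) and 8 falling (9.8%, beside 5.65%). A region 2.4 kb from the start of Cebpb stood at 32.5, 27.4, 35.9 and 42.3 in WT and at 5.4, 0, 8.9 and 0 in P300KO_TET2KO (limma adjusted p = 0.0438). Cebpb drives granulocyte output under stress. A region 2.3 kb inside Spi1, which encodes PU.1, stood at 0, 0, 0 and 15.7 in WT and at 24, 36.1, 37.6 and 35.7 in P300KO_TET2KO (limma adjusted p = 0.0569). The groups did not overlap at either of them. Erythroid and megakaryocyte genes had 9 of 60 regions rising (15%, beside 10.8%) and 5 falling (8.3%, beside 5.65%), with 0 called by limma. Itga2b, the platelet integrin, had 2 rising of 4 regions. Car2, a carbonic anhydrase of red cells, had 2 falling of 3. Selp and Vwf, both of platelets, each had 1 rising and 1 falling region.

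NF-kB and inflammation genes had 10 of 78 regions rising (12.8%, beside 10.8%) and 5 falling (6.4%, beside 5.65%), with 0 called by limma. A region 0.7 kb from the start of Tnfaip3, which encodes an inhibitor of NF-kB, stood at 0, 27.6, 47.4 and 60.2 in WT and at 53.7, 63.8, 74.3 and 69.6 in P300KO_TET2KO, where the groups overlapped across but not within the replicate pairs (limma adjusted p = 0.0851). A falling region 26.1 kb from Nfkbia stood at 27.2 to 65.2 in WT and 0 to 8.0 in P300KO_TET2KO (limma adjusted p = 0.0502). Of the 10 regions given to Nfkbia, 2 were rising and 1 falling, with a median difference of 12.5 points. AP-1 and immediate early genes had 4 of 89 rising (4.5%, beside 10.8%) and 5 falling (5.6%, beside 5.65%), with 0 called by limma.

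Interferon response genes had 7 of 34 regions rising (20.6%, beside 10.8%) and 0 falling (beside 5.65%). The region at the Mx1 start (chr16:97462611-97463812) passed limma (adjusted p = 0.0201). It stood at 70, 57.3, 48.3 and 51.9 in WT and at 79.2, 80, 88.3 and 86.0 in P300KO_TET2KO. Across all 16 libraries it was at 75.2 to 88.3 in the 8 from mice with the Mx1-Cre transgene and at 48.3 to 70 in the 8 without it. The transgene carries an Mx1 promoter, so accessibility of the transgene and of the gene cannot be told apart here. Mx1 is an antiviral GTPase. Other rising regions of the list lay near Ifit1, in Ifi44 and at the start of Stat2, with a limma adjusted p of 0.11 near Ifit1 and 0.16 in Ifi44. The Stat2 region was at 0 in all WT libraries and at 7.0 to 22.5 in P300KO_TET2KO, through which alone it entered the test.

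Acetyltransferase and DNA methylation genes had 10 of 68 regions rising (14.7%, beside 10.8%) and 5 falling (7.4%, beside 5.65%). Limma called 2 of the 68 higher, beside 0.576% of all tested regions. An intronic region of Kat6a, an acetyltransferase of histone H3, stood at 0.3, 0, 0.9 and 4.0 in WT and at 22.6, 32.2, 53.7 and 46.2 in P300KO_TET2KO (limma adjusted p = 0.0314). A region 3.0 kb from Kat5, the catalytic subunit of the Tip60 complex, stood at 46.8, 71.5, 24.3 and 39.0 in WT and at 84.2, 79.1, 65.9 and 65.0 in P300KO_TET2KO (limma adjusted p = 0.0475). WT replicate 2 overlapped the P300KO_TET2KO range there, though not within its pair. Of the 2 regions given to Kat5, 1 was rising and 1 falling, and of the 6 given to Kat6a, 2 were rising and 1 falling. Peaks do not read the deletions themselves. At the targeted genes the Ep300 promoter stood at 84.3 to 91.1 in WT and 84.8 to 88.0 in P300KO_TET2KO, and the Tet2 promoter at 78.4 to 82.2 and 76.2 to 84.5, and neither was called. Another Ep300 region, 8.1 kb from that start, was rising without passing limma (adjusted p = 0.253). These regions check nothing about the loss of either gene.

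**Figure D5:**
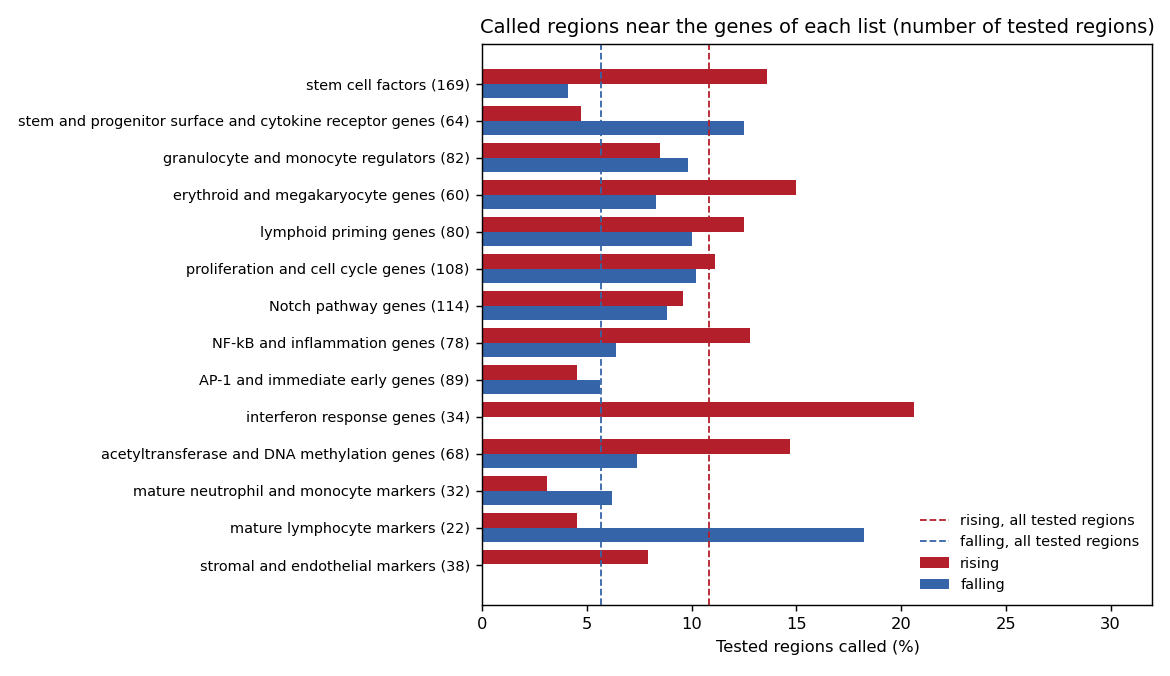
Share (%) of tested regions that were rising or falling near the genes of each of 14 lists, with the number of tested regions in parentheses and dashed lines at 10.8% rising and 5.65% falling for all tested regions. The interferon response list reaches 20.6% rising with 0 falling among 34 regions, and the mature lymphocyte markers 18.2% falling among 22.

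The cells had been sorted as HSPCs, and they were checked against markers of other marrow cells. The study also names the ATAC-seq cells LSK cells (lineage-, Sca-1+, c-Kit+), a gate that leaves out mature lymphocytes. Regions were tested near 10 of 14 genes of mature neutrophils and monocytes, 9 of 12 of mature lymphocytes and 7 of 8 of stromal and endothelial cells, and none near S100a8, Ngp, Lcn2, Ly6g, Cd3g, Cd8a, Cd79a or Lepr. Beside 10.8% rising and 5.65% falling of all tested regions, 1 of 32 neutrophil and monocyte regions was rising (3.1%) and 2 falling (6.2%), and 3 of 38 stromal and endothelial regions were rising (7.9%) and 0 falling. Of 22 lymphocyte regions 1 was rising (4.5%) and 4 were falling (18.2%). Without WT replicate 1 the falling ones were 8, where 10.77% of all tested regions were falling, and the list's median difference was -2.94 points. The promoter of Nkg7, a granule protein of cytotoxic cells, stood at 41.8, 31.7, 25.1 and 24.4 in WT and at 0, 0, 3.2 and 6.6 in P300KO_TET2KO (limma adjusted p = 0.0579), and was at 0 to 12.9 in every single-knockout library. The mean percentile over the 22 lymphocyte regions was 47.6 to 50 in WT libraries and 41.5 to 44.8 in P300KO_TET2KO, lower in P300KO_TET2KO as at the falling regions near Ebf1 and Dntt, and its part in those results was not tested. That of the neutrophil and monocyte regions was 36.5 to 49.0 and 47.3 to 50.2, and that of the stromal and endothelial regions 28.3 to 39.7 and 38.9 to 40.9, each lowest in WT replicate 1.

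Of the 13 regions of these lists that passed limma, 0 kept the call whichever library was left out. The 13 include the regions in Ebf1 and near Hes1, which entered the test through WT alone, so their calls carry no weight as a test. Without WT replicate 1 all 13 passed, and without WT replicate 2 all but the Mki67 region. With the replicate block 7 were lost, near or in Cd48, Cebpb, Mki67, Hes1, Maml3, Kat5 and Kat6a, and in full lists 11.

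The counts changed without WT replicate 1, where 14.19% of all tested regions were rising and 10.77% falling. The stem cell factors then had 25 rising and 22 falling regions in place of 23 and 7. The surface and cytokine receptor genes had 5 and 9, the interferon response genes 9 and 3, the lymphoid priming genes 16 and 14, the Notch pathway genes 19 and 16, and the proliferation genes 14 and 17. The NF-kB and inflammation genes had 13 and 11, the granulocyte genes 12 and 10, the AP-1 genes 7 and 7, the acetyltransferase genes 14 and 9, and the erythroid and megakaryocyte genes 13 and 7. A rule that asks fewer libraries not to overlap is easier to meet, so the counts of both directions rose or were level in every list. The falling share of the stem cell factors, 22 of 169 regions, was then above the 10.77% of all tested regions and no longer below. Their rising share, 25 of 169 regions, was near the 14.19% of all tested regions.

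Single genes with several called regions were counted over the 15703 genes with a tested region within 100 kb. A rising region lay near 4036 genes, a falling one near 2117 and both near 667. Gse1 had the most rising regions, 12 of 38 with 2 falling, followed by Tcf7l2, a transcription factor of the Wnt pathway, with 6 of 18 and 1 falling, and Rreb1 with 6 of 21 and 2 falling, where 10.8% of all tested regions were rising and 5.65% falling. The 4 regions of Ctnnd1 and the 3 of Cwc22 and of Hdhd3 were all rising, with median differences of 22.6, 25.5 and 35.3 points. Arhgef10 and Smad7, an inhibitor of transforming growth factor beta signaling, had 5 falling regions each, of 11 and 19. Gfra1 had 4 falling of 8 (median -19.7 points) and Id3, an inhibitor of basic helix-loop-helix factors, 3 of 5. At least 3 rising and 0 falling regions were found near 123 genes, and the opposite near 20.

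Of 12 regions in the Hoxb cluster, which is open in stem cells, 2 were rising, a share near the 10.8% of all tested regions. They lay near Hoxb4 (78.3 to 83.3 in WT and 82.5 to 85.6 in P300KO_TET2KO) and Hoxb2. Neither passed limma.

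Called regions were spread over all chromosomes, where 10.8% of all tested regions were rising and 5.65% falling. The share of rising regions ran from 8.9% on chromosome 14 to 12.5% on chromosome 11 among the autosomes, and of falling regions from 4.2% on chromosome 11 to 7.1% on chromosome 13. On chromosome X it was 12.2% and 3.2% of 966 regions. Within 20 Mb of Tet2, where 551 regions were tested, 8.5% were rising and 9.1% falling. Limma called 2 of these regions higher and 7 lower, beside 0.576% and 0.596% of all tested regions. The Cnn3 site lies in this stretch. Within 20 Mb of Ep300 11.4% of 1300 regions were rising and 4.4% falling.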

How the data were processed

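ATAC-seq peak lists were used as deposited, 1 for each library. The authors followed the ENCODE pipeline and, per the submitters' processing notes, used cutadapt 1.9.1, Bowtie2 2.2.6 and MACS2 2.1.0 on mm10, with duplicates removed, reads shifted for Tn5 and peaks called in each library separately. The deposited lists give a fold enrichment, a ratio over local background, and −log10 p and −log10 q. These are not signal on a common scale, and depth is unknown, so intervals were ranked within each list. Intervals with several summits were counted once and merged where they shared 1 bp. Replicates 1-2, whose labels name a combined peak set, and replicates 3-4, whose labels name none, are here called replicate pairs.

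Percentiles were tested with limma 3.58.1 (R 4.3.3; trend, Benjamini-Hochberg, threshold 0.05) with the replicate pair as covariate, and single values per library with exact permutation tests. The procedures were run on simulated data with equal noise in every library, no replicate pair effect and no site absent from a list. That run does not cover a weak list such as WT replicate 1. Places and genes came from GENCODE M21 and sequence from RefSeq GRCm38. A promoter was within 3 kb of any transcription start. The regions named are, each way, the 8 outside promoters and 4 in promoters with the largest difference, up to 4 called regions per gene list, and preset loci. Genes with the most called regions were picked after their values were seen. The regions, gene lists and strings were chosen with earlier results of these data known. The labels call the replicates independent, each from 2 mice.

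Same-numbered libraries deviated together from their group means (r = 0.211 to 0.361), whereas their differences within a replicate pair correlated at 0.02 and 0.063. Alternatives were other list sizes, full lists, ranking by fold, summit windows, other filters, normal scores, the replicate block, and leaving out each library.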

Additional observations from a re-analysis of the deposited data

Results flagged for a closer look

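In 15 of 74 groups of 4 libraries 1 library stood apart from the others by Dixon's test of the gap to the nearest library over the whole range. Chance would give about 1 in 20 of the groups that could be tested. The 74 include groups with all libraries at 0, such as WT near Cdrt4, which have no range and could not be flagged. The sources of these gaps were not tested. Of the 15 groups 13 were single regions, and where the others are all at 0 any value above 0 stands apart.

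In WT at rising regions the library standing apart was the highest one, at a percentile of 1.8 in Ppm1h, 56.4 near Tmem17, 63.6 in Atf2, 9.3 in Alad, 10.6 near Rfxap, 16.4 at Slc35f6 and 11.8 at the Uggt2 promoter. At Tmem17 and Atf2 it was WT replicate 4, the WT library nearest to the P300KO_TET2KO libraries there. In WT at falling regions it was the lowest library near Hs6st1 (61.0), Tgfbr2 (61.6) and Btbd35f28 (52.2) and the highest near Ddx18 (83.8, WT replicate 1). In P300KO_TET2KO it was the only library above 0, at 5.2 near Tgfbr2 and 20.8 near Btbd35f28.

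Among the string shares, WT replicate 2 held the Gata string in 10.7% of distal windows, above the other WT libraries, and WT replicate 1 held the Ets string in 26.6%, below them.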

How the results depend on the processing

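The count of rising regions, 5271 as reported, was 2983 in lists of 30000, 9268 in full lists, 14088 in replicates 1-2 alone, 12724 in replicates 3-4 alone and 2682 where all 4 libraries had to exceed all 4, and 6480 to 8137 when 1 library was left out. The count of falling regions, 2765 as reported, was 1806, 4774, 7147, 11016 and 1421 under the same settings, 5997 when ranked by fold enrichment, and 3432 to 5275 when 1 library was left out. The replicate block gave 7523 rising and 4093 falling regions, and summit windows 5296 and 2792. The cause of these shifts was not tested, except that leaving out a library or a pair relaxes the rule.

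For limma, 282 regions higher became 175 in lists of 70000, 137 in full lists, 171 with summit windows, 1 when regions in at least 1 list were tested, 63 for regions in all 8 lists, 425 with normal scores, 30 with no pair covariate, 57 with the replicate block, 0 in replicates 1-2 alone and 32 in replicates 3-4 alone, and 4 to 1132 when 1 library was left out. The 292 lower became 127 in full lists, 109 when ranked by fold, 6 in at least 1 list, 145 in all 8, 886 with normal scores, 59 with no pair covariate, 115 with the replicate block, 0 and 81 in the pairs alone, and 12 to 1086 when 1 library was left out. The share of higher among these calls was 49.1% as reported, 67.9% ranked by fold, 30.3% for regions in all 8 lists, 14.3% for regions in at least 1 list, 28.3% in replicates 3-4 alone, 12.5% to 20% without any 1 P300KO_TET2KO library and 33.3% to 55.7% without any 1 WT library.

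The difference in the share outside promoters was 0.05 points as reported, -1.09 in full lists and -0.58 to 0.52 when 1 library was left out, and the lowest exact permutation p among all settings, the replicate block (0.05 points) included, was 0.514. The 12 strings gave 0 adjusted calls under every setting, of which permutation within pairs and the replicate block could not reach the threshold by design. At the 78 named and listed regions 176 of the 880 values under alternatives lost the call, and 15 gained it. The direction was kept in all 880, which their choice for a separation in both replicate pairs nearly fixes. Ranks carry no depth, so a site outside the 50000 is below the others and not shown to be closed.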

Other observations

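The mean GC content of the distal windows of a library's 50000 strongest intervals did not overlap between the genotypes, although the gap was small. It was 50.6% to 50.8% in the P300KO_TET2KO libraries and 50.9% to 51.1% in WT, with a difference of -0.22 points in replicates 1-2 and -0.27 points in replicates 3-4. P300KO libraries stood at 50.6% to 50.9% and TET2KO libraries at 50.8% to 51.0%. The measure was picked after its values were seen, and no test of it is given.

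The 54 regions higher by limma outside promoters that hold the Gata string had median percentiles of 31.0, 32.6, 22.2 and 24.6 in P300KO replicates 1 to 4 and of 33.9, 32, 8.0 and 3.7 in TET2KO replicates 1 to 4, beside 0 to 2.3 in WT and 42.4 to 46.2 in P300KO_TET2KO. TET2KO replicates 3 and 4 were thus near WT and replicates 1 and 2 near P300KO. The 135 such regions without the Gata string stood at 27.3 to 37.9 in TET2KO, where no such split between the pairs was seen. The set was picked after its values were seen.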
